A study of Mus musculus with 10 samples.

Results

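The genes described here are those of fatty acid oxidation and ketogenesis, a fixed list of 40 mouse genes that covers the activation of fatty acids, the carnitine shuttle, the oxidation spirals of mitochondria and peroxisomes, and the making and use of ketone bodies. The list was taken by gene symbol. A gene counted as measured where a probe cluster of the array is annotated with that symbol alone, and where several such clusters exist the brightest on average was used. By this rule 37 of the 40 genes were measured, out of 22180 genes on the array, of which 20 work mainly in mitochondria, 13 in peroxisomes and 4 elsewhere. Cpt1b and Acsl3 share their clusters with other genes and Acsl1 is not among the annotated symbols used, so these 3 genes were not analysed here.

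Fatty acids are an important fuel of the liver. They are bound in the cytosol and activated to acyl-CoA, pass the inner mitochondrial membrane as carnitine esters, and are then shortened in a repeating cycle of oxidation, hydration, a second oxidation and cleavage. Peroxisomes run a similar cycle on very long and branched chains and on the side chain of bile acid precursors. During fasting the liver turns the acetyl-CoA into ketone bodies, which other tissues burn but hepatocytes do not. Many of these genes are known targets of PPAR alpha, a nuclear receptor that pairs with RXR.

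Expression was measured in total RNA on 10 Affymetrix arrays, 3 of adult mouse hepatocytes from liver, 3 of hepatocyte-like cells made by differentiating embryonic stem cells, and 4 of mouse embryonic stem cells. All samples carry the same strain label, which names the luciferase and GFP transgene L2G85Chco under the ubiquitous CAG promoter, and the same passage label of below 20, which is also attached to the adult hepatocytes. The labels give no age, sex, isolation method or differentiation protocol. They call the samples biological replicates and say no more, so the p-values speak for the spread of these samples only.

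Values are log2 intensities, on which 1 unit is a doubling, and ran from 1.27 to 13.58. A gene was called where limma's moderated test over all 22180 genes gave a log2 difference of 1 or more with a Benjamini-Hochberg adjusted p under 0.05, and only called genes are said below to have risen or fallen. Errors beside differences are standard errors from that fit. Values below 5.5 were treated as dim, where the means of muscle and adipocyte markers lie (4.31 to 5.49), and a fold change with a dim group is uncertain. Arrays of a group correlated at 0.960 or more. The mean over 10 hepatocyte markers was 12.65 to 12.71 in adult hepatocytes and 4.85 to 5.04 in embryonic stem cells. In hepatocyte-like cells it was 5.53, 5.98 and 7.33 in replicates 1, 2 and 3, with 3 of the 10 markers called higher than in embryonic stem cells and 4 below 5.5. The data therefore go only partly with the label of these cells, whose 10 stellate cell and fibroblast markers averaged 9.68, 8.77 and 7.68 in the same order, against 5.92 to 6.05 in adult hepatocytes. Markers of extraembryonic endoderm averaged 7.51 to 7.98 in hepatocyte-like cells and 5.97 to 6.13 in adult hepatocytes, and those of cholangiocytes 6.90 to 7.71 and 4.74 to 4.88. Cell division markers averaged 5.65 to 5.89 in adult hepatocytes, 7.53 to 9.11 in hepatocyte-like cells and 9.79 to 10.24 in embryonic stem cells. Adult hepatocytes also carried Kupffer cell and macrophage markers, at 6.19 to 6.51 against 4.75 to 4.90 in all other arrays, and endothelial markers, at 7.25 to 7.40 against 5.21 to 6.03. The part of these other cells and of cell division in the results was not tested, and in such bulk samples fewer cells of a type and less RNA per cell cannot be told apart.

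Most of the oxidation genes were at their highest in adult hepatocytes and not called higher in hepatocyte-like cells than in embryonic stem cells. Between adult hepatocytes and embryonic stem cells 29 of the 37 genes rose and 2 fell, where 26.6% of all genes were called, 11.0% of them higher and 15.6% lower. The median difference of the 37 was 2.01, a 4.03-fold higher level, against 0.05 over all genes. Between hepatocyte-like cells and adult hepatocytes 32 of the 37 were called lower in the former and 2 higher. Here 23.0% of all genes were called, 9.12% lower and 13.9% higher. The median was -2.16 against -0.04 over all genes. Hepatocyte-like cells differed from embryonic stem cells in 9 of the 37, with 3 risen (Acsl4, Acsl5 and Acadvl) and 6 fallen (Cpt1a, Ehhadh, Acadm, Amacr, Echs1 and Hadh). Of all genes 16.0% were called, 8.61% higher and 7.35% lower, and the median difference was -0.18 against -0.01 over all genes. Without replicate 1 of the hepatocyte-like cells 5 genes rose, the 3 named and Cpt1c and Etfdh.

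Taken array by array, the hepatocyte-like arrays lay wholly above the embryonic stem cell arrays in 9 of the 37 genes and wholly below them in 11, where 17.2% and 17.5% of all genes did. Adult hepatocytes lay wholly above embryonic stem cells in 33 and below in 2, where 22.4% and 24.5% of all genes did. Hepatocyte-like cells lay wholly below adult hepatocytes in 33 and above in 3, where 20.9% and 24.3% did. Of the 37 genes, 32 were higher in every adult hepatocyte array than in all 7 other arrays, which 13.9% of all genes were. Another 2, Cpt1c and Oxct1, were lower in every adult array than in all others, as were 15.6% of all genes. The exceptions to the first pattern were Cpt1a, Cpt1c, Acox3, Oxct1 and Acsl4. In 11 of the 37 every hepatocyte-like array lay below all 7 others, where 4.56% of all genes did. These were Cpt1a, Slc25a20, Acadm, Acads, Hadh, Echs1, Ehhadh, Eci1, Decr2, Bdh1 and Amacr. The reverse, every hepatocyte-like array above all others, held for Cpt1c and Acsl4, where it held for 9.07% of all genes. Within the groups, hepatocyte-like replicate 3 was the highest of its 3 arrays in 19 of the 37 genes and the lowest in 5, where 35.4% and 38.9% of all genes were. Embryonic stem cell replicates 1 and 3 lay on 1 side of replicates 2 and 4 in 26 of the 37, where 51.8% of all genes did. In most genes these 4 arrays thus fell into the same 2 pairs. The labels name no such pairs, and whether the 4 arrays are independent was not tested. The 2 comparisons with embryonic stem cells share those 4 arrays, so their differences are given side by side and not related to each other.

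**Figure D1:**
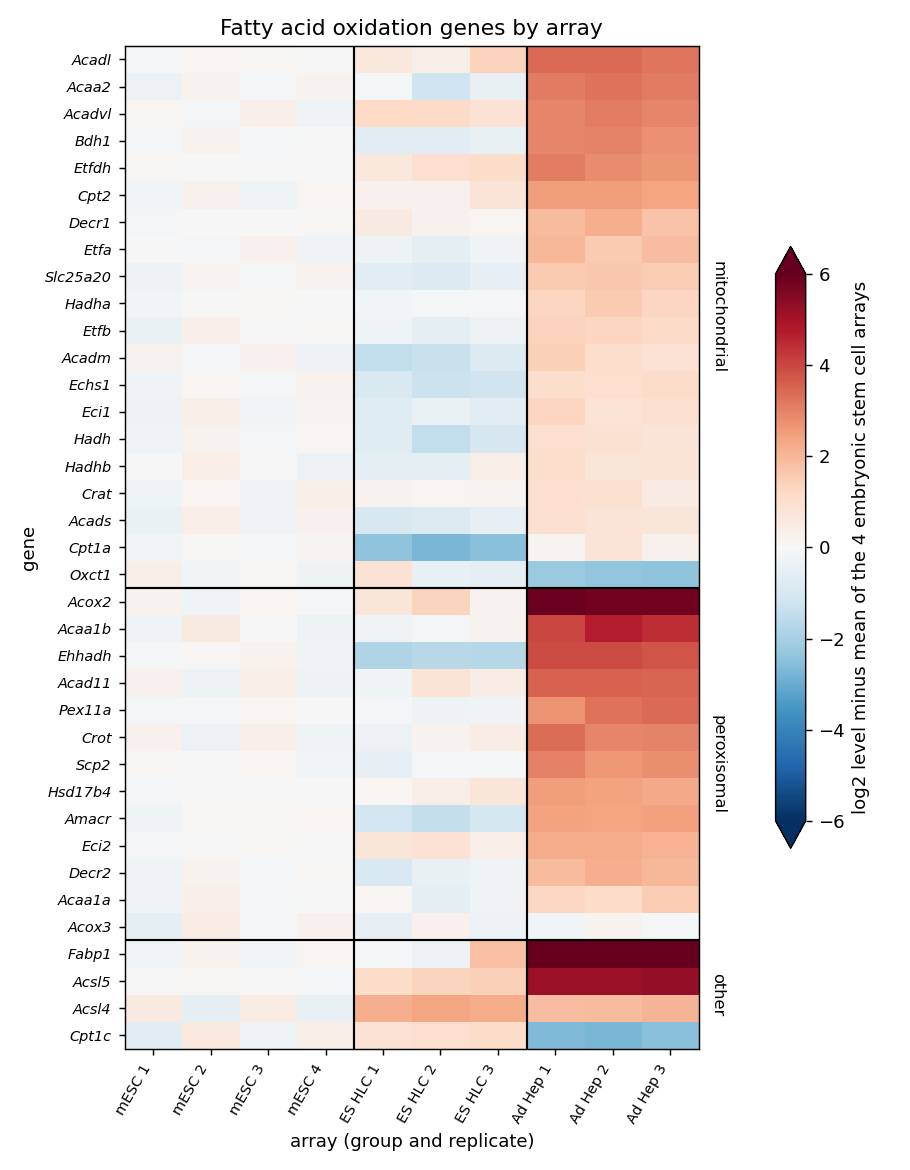
Level of each of the 37 measured genes (rows, grouped into mitochondrial, peroxisomal and other) in each of the 10 arrays (columns), as the log2 level minus the mean of the 4 embryonic stem cell arrays, on a colour scale from -6 to 6. The 3 adult hepatocyte columns are above the embryonic stem cell mean for most genes, with Cpt1c and Oxct1 below it, while the hepatocyte-like columns are near or below it for most.

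Before oxidation, fatty acids are bound by carriers and activated by acyl-CoA synthetases. Fabp1, the fatty acid binding protein of the liver cytosol, stood at 12.04, 12.09 and 12.07 in adult hepatocytes, at 3.65, 3.36 and 5.52 in hepatocyte-like replicates 1 to 3, and at 3.57, 3.94, 3.55 and 3.84 in embryonic stem cells. Adult hepatocytes were far above all other arrays, by 8.34 ± 0.39 over embryonic stem cells (adjusted p = 1.92e-09) and 7.89 ± 0.42 over hepatocyte-like cells (adjusted p = 7.69e-09). Both other groups averaged below 5.5, so no fold is given. Between them Fabp1 differed by 0.45 ± 0.39 (adjusted p = 0.467), and by -0.22 without hepatocyte-like replicate 3, the array that also had the highest hepatocyte markers and the lowest fibroblast markers of its group.

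The promoter of Fabp1 is shown because it alone among these genes held a match to the element searched for. The search covered 34 RefSeq promoters of 32 of the measured genes, from 250 bases before to 50 bases after the start on GRCm38.p6, and looked on both strands for AGGNCANAGGNCA, a direct repeat of the unit AGGNCA with 1 base between, the kind of element that PPAR and RXR bind. It was in 1 of the 34 promoters, or 2.94%, and in 0.381% of all 32851 promoters of the same length. In the 250 bases before the Fabp1 start (chr6:71199629-71199878, plus strand) capitals mark this match, 67 to 55 bases before the start, and a TATAAA match, 30 to 25 bases before it.
Fabp1: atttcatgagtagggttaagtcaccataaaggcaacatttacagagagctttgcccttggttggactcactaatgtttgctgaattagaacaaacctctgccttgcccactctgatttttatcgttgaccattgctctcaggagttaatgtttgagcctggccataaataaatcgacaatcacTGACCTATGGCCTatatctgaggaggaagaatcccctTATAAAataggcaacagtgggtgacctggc
The TATAAA search was added after the values were seen, and that motif was in 13.6% of all promoters and in no other of the 34. A match describes the letters only, and a promoter without one may still be bound.

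Acsl5, an acyl-CoA synthetase of liver and gut, stood in order between the groups. It read 11.09, 11.11 and 11.23 in adult hepatocytes, 7.06, 7.30 and 7.43 in hepatocyte-like cells, and 5.97, 6.06, 5.99 and 5.92 in embryonic stem cells. The 3 groups did not overlap. Acsl5 rose by 1.28 ± 0.14 in hepatocyte-like cells (2.42-fold, adjusted p = 2.56e-05) and by 5.16 ± 0.14 in adult hepatocytes (35.8-fold, adjusted p = 1.77e-11). Acsl4, a synthetase that prefers arachidonic acid, read 8.87, 8.88 and 9.05 in adult hepatocytes, 9.16, 9.35 and 9.24 in hepatocyte-like cells, and 7.55, 6.44, 7.46 and 6.55 in embryonic stem cells. Here both hepatocyte groups were above all embryonic stem cell arrays. The rise was 2.25 ± 0.26 in hepatocyte-like cells (4.76-fold, adjusted p = 3.02e-05) and 1.93 ± 0.26 in adult hepatocytes (3.82-fold, adjusted p = 4.02e-05). Hepatocyte-like cells and adult hepatocytes differed by 0.32 (adjusted p = 0.414), with a 95% confidence interval of the difference from -0.28 to 0.92.

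**Figure D2:**
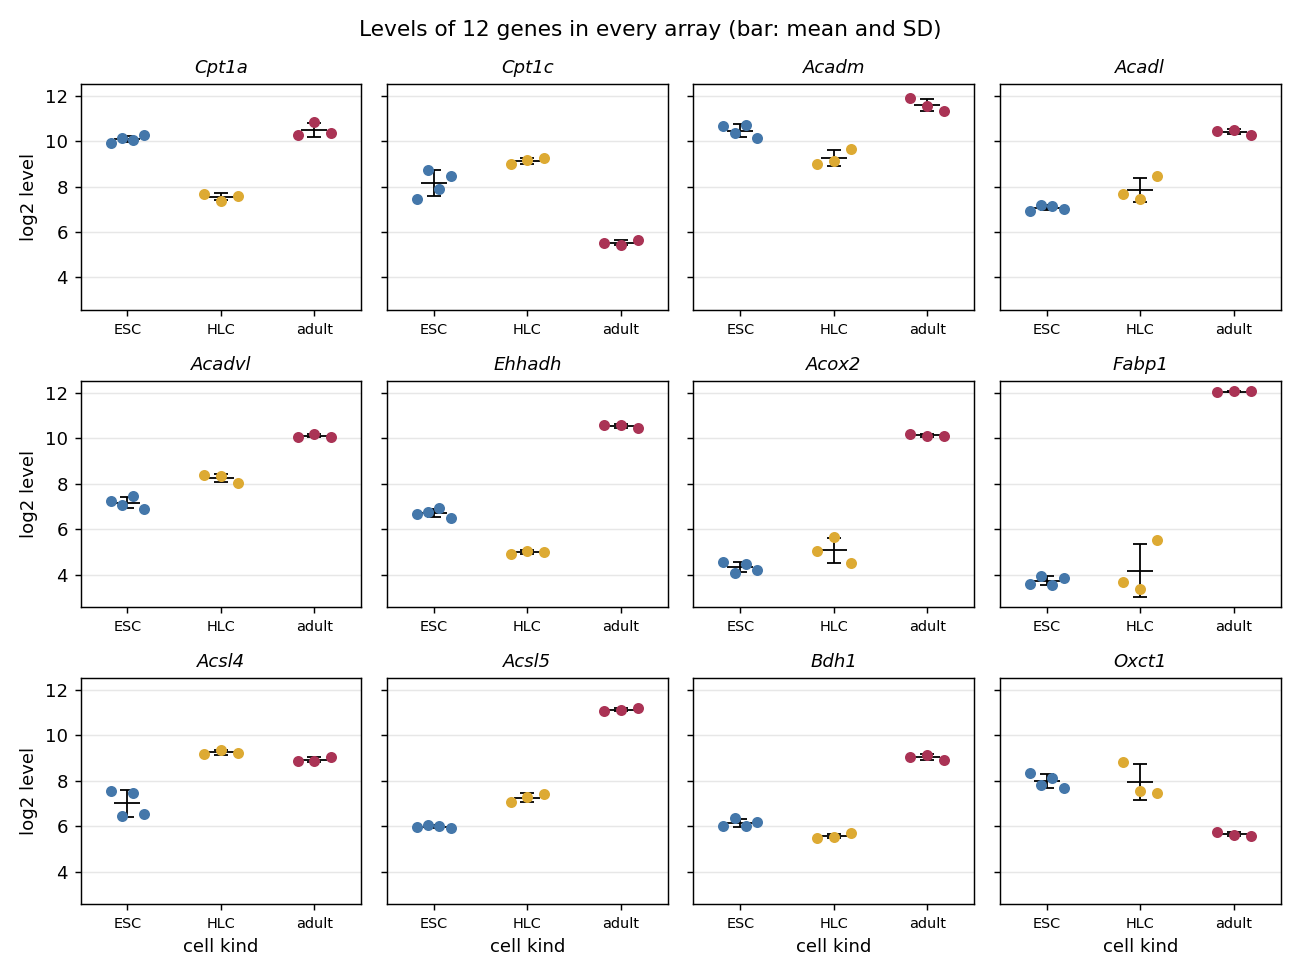
Log2 level of 12 of the genes in each array (points), with the mean and SD of each group, for 4 embryonic stem cell (ESC), 3 hepatocyte-like (HLC) and 3 adult hepatocyte (adult) arrays. Acsl5 steps up from embryonic stem cells through hepatocyte-like cells to adult hepatocytes, Cpt1a is low in hepatocyte-like cells alone, and Cpt1c and Oxct1 are lowest in adult hepatocytes.

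The carnitine shuttle carries activated fatty acids into the mitochondrion. Cpt1a, the liver form of carnitine palmitoyltransferase 1 and the main control point of mitochondrial oxidation, read 10.28, 10.87 and 10.35 in adult hepatocytes, 7.69, 7.39 and 7.60 in hepatocyte-like cells, and 9.95, 10.17, 10.05 and 10.28 in embryonic stem cells. The hepatocyte-like arrays were below all others, while the other groups met at 10.28. Adult hepatocytes and embryonic stem cells differed by 0.39 ± 0.18 (adjusted p = 0.103), with a 95% confidence interval from 0.00 to 0.77. After cyclic loess normalization of the arrays that difference was 0.92 (adjusted p = 0.00136), which is still under the size of a call, and without adult replicate 2 it was 0.20. Hepatocyte-like cells were 7.67-fold below adult hepatocytes (adjusted p = 5.35e-08). The neuronal form Cpt1c, whose protein lies in the endoplasmic reticulum and has little transferase activity, showed the opposite order. It read 5.53, 5.43 and 5.64 in adult hepatocytes, 9.01, 9.17 and 9.25 in hepatocyte-like cells, and 7.47, 8.76, 7.92 and 8.49 in embryonic stem cells. Adult hepatocytes were at the edge of the dim range and 2.62 ± 0.26 below embryonic stem cells, a 6.17-fold fall (adjusted p = 2.48e-06). Hepatocyte-like cells were 0.99 ± 0.26 above embryonic stem cells (adjusted p = 0.011), just under the difference of 1 that a call needs, and passed it in 6 of the alternatives.

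The 250 bases before the Cpt1a start (chr19:3323051-3323300, plus strand) are shown for contrast with Fabp1, with each CG in capitals, 14 of them. Cpt1a was above the dim range in every array, unlike Fabp1.
Cpt1a: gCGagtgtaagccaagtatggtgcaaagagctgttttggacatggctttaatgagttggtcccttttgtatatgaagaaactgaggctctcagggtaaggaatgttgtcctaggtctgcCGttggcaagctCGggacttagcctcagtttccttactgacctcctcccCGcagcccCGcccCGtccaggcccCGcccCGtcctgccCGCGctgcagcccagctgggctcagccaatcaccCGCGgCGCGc
In windows of 300 bases Cpt1a had 22 CG pairs and Fabp1 had 3, with a median of 15.0 over the 34 promoters and 7.0 over all promoters. This is 1 chosen pair of genes. Fabp1 is 1 of 6 measured genes with a dim group mean. The others had 24 CG pairs (Hadhb), 14 (Ehhadh), 13 (Pex11a), 10 (Acaa1a), and 2 and 4 (the 2 promoters of Acox2).

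The later steps of the shuttle were highest in adult hepatocytes. Cpt2, which turns the carnitine ester back to acyl-CoA inside, read 10.34, 10.32 and 10.21 in adult hepatocytes, 8.09, 8.09 and 8.61 in hepatocyte-like cells, and 7.66 to 8.10 in embryonic stem cells, and rose by 2.47 ± 0.18 in adult hepatocytes (adjusted p = 1.86e-07). Slc25a20, the carnitine-acylcarnitine carrier of the inner membrane, read 9.79 to 9.88 in adult hepatocytes, 7.45 to 7.75 in hepatocyte-like cells and 7.95 to 8.46 in embryonic stem cells. Its groups did not overlap, but the difference of -0.65 between hepatocyte-like and embryonic stem cells was too small for a call. Crot, which makes carnitine esters of medium chains for export from peroxisomes, read 11.66, 11.26 and 11.28 in adult hepatocytes, 7.98, 8.53 and 8.74 in hepatocyte-like cells and 7.98 to 8.61 in embryonic stem cells, a rise of 3.10 in adult hepatocytes. Crat, which does the same for acetyl groups, differed by 0.83 between adult hepatocytes and embryonic stem cells and was called in no comparison. After cyclic loess it was called, at 1.23, and over the mean of its 2 clusters the difference was 0.33.

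Of the 9 enzymes of the mitochondrial spiral 9 were called lower in hepatocyte-like than in adult cells, where 9.12% of all genes were. The median difference was -1.98. Against embryonic stem cells the adult hepatocytes were called higher in 6 of 9, where 11.0% of all genes were, with a median of 1.13. The adult arrays lay wholly above the embryonic stem cell arrays in 9 of 9, as they did in 22.4% of all genes. The acyl-CoA dehydrogenases, which take the first step and differ in the chain length they prefer, did not move as 1 group in hepatocyte-like cells. Acadvl, for very long chains, read 10.08, 10.21 and 10.07 in adult hepatocytes, 8.37, 8.33 and 8.04 in hepatocyte-like cells, and 7.26, 7.05, 7.45 and 6.88 in embryonic stem cells. The groups did not overlap, and the rise in hepatocyte-like cells was 1.09 ± 0.17 (adjusted p = 3.34e-04). It fell just short of 1 and was not called without embryonic stem cell replicate 4.

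Acadm, for medium chains, read 11.91, 11.54 and 11.36 in adult hepatocytes, 9.0, 9.15 and 9.66 in hepatocyte-like cells, and 10.67, 10.38, 10.72 and 10.13 in embryonic stem cells. Again the groups did not overlap, but hepatocyte-like cells were now the lowest, with a fall of 1.21 ± 0.21 from embryonic stem cells (adjusted p = 8.81e-04). The rise of Acadm in adult hepatocytes was 1.13 ± 0.21 (adjusted p = 7.5e-04), and 0.98 and not called without adult replicate 1. After cyclic loess it was 1.71. Acadl, for long chains, read 10.46, 10.50 and 10.30 in adult hepatocytes, 7.70, 7.44 and 8.46 in hepatocyte-like cells, and 6.95, 7.20, 7.13 and 7.04 in embryonic stem cells. It rose 10.1-fold in adult hepatocytes (adjusted p = 4.4e-08), and the hepatocyte-like arrays, of which replicate 3 was the highest, were all above the embryonic stem cell arrays by a mean of 0.78, which was not called. Acads, for short chains, read 9.63 to 9.90, 7.94 to 8.41 and 8.53 to 9.30 in the 3 groups in the same order, and was called between hepatocyte-like cells and adult hepatocytes, at -1.61. Its difference of 0.82 between adult hepatocytes and embryonic stem cells was not called, and was 1.31 and called after cyclic loess.

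Hadha and Hadhb encode the subunits of the trifunctional protein, which takes long chains through the last 3 steps. Hadha read 11.44, 11.71 and 11.43 in adult hepatocytes, 9.96, 10.01 and 10.03 in hepatocyte-like cells, and 9.99, 10.18, 10.21 and 10.16 in embryonic stem cells. It rose by 1.39 ± 0.14 in adult hepatocytes (adjusted p = 3.79e-06) and differed by -0.14 between the other groups. The Hadhb cluster read 6.09 to 6.42 in adult hepatocytes and was dim on average in the other groups, at 4.81 to 5.71 and 5.04 to 5.74. Its call between hepatocyte-like cells and adult hepatocytes (-1.12 ± 0.25, adjusted p = 0.00342) was lost without hepatocyte-like replicate 1 (-0.98) or 2 (-0.97). The start sites of this pair lie head to head on chromosome 5, with promoter windows that overlap by 228 bases.

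For shorter chains the hydration, second oxidation and cleavage are separate enzymes. Echs1, the enoyl-CoA hydratase, read 10.38, 10.32 and 10.41 in adult hepatocytes, 8.40, 8.05 and 8.13 in hepatocyte-like cells, and 9.12, 9.43, 9.22 and 9.51 in embryonic stem cells. Its groups did not overlap, with a fall of 1.12 ± 0.16 in hepatocyte-like cells (adjusted p = 1.42e-04) and a rise of 1.05 ± 0.16 in adult hepatocytes (adjusted p = 1.05e-04), which was 0.98 and not called without embryonic stem cell replicate 1. Hadh, the short-chain hydroxyacyl-CoA dehydrogenase, read 11.91, 11.79 and 11.67, then 10.15, 9.41 and 9.86, then 10.65, 11.07, 10.81 and 11.0 in the same order. It fell by 1.07 ± 0.19 in hepatocyte-like cells (adjusted p = 8.27e-04), and differed by -0.88 with no call without hepatocyte-like replicate 2, its lowest array. Over embryonic stem cells adult hepatocytes were 0.91 higher, with no call, and 1.51 higher and called after cyclic loess. Acaa2, the thiolase that ends the cycle, read 11.67, 11.80 and 11.69 in adult hepatocytes, 8.51, 7.35 and 8.11 in hepatocyte-like cells, and 8.22 to 8.78 in embryonic stem cells. It showed the largest difference between hepatocyte-like cells and adult hepatocytes among the 9 enzymes of the spiral, 13.3-fold.

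The electrons of the first step pass through the flavoprotein of Etfa and Etfb to the membrane enzyme Etfdh. In adult hepatocytes over embryonic stem cells 3 of these 3 rose, where 11.0% of all genes did. None of them was called between hepatocyte-like and embryonic stem cells, where 16.0% of all genes were. Etfa read 10.14 to 10.55 in adult hepatocytes, 7.99 to 8.36 in hepatocyte-like cells and 8.36 to 8.82 in embryonic stem cells. Etfb read 9.58 to 9.83, 7.92 to 8.19 and 8.04 to 8.75. Etfdh had the opposite order of the lower groups, at 11.51, 11.28 and 11.11, then 9.05, 9.43 and 9.54, then 8.49, 8.43, 8.42 and 8.42, with no overlap. Its difference of 0.90 ± 0.16 between hepatocyte-like and embryonic stem cells passed the adjusted p (0.00102) but not the size. The 4 auxiliary enzymes that prepare unsaturated chains, Eci1 and Decr1 of mitochondria and Eci2 and Decr2 mainly of peroxisomes, were called higher in adult hepatocytes than in both other groups. Against embryonic stem cells they rose by 1.03, 1.95, 2.19 and 2.01 in that order. Of all genes 11.0% were called higher in that comparison, and 9.12% lower in hepatocyte-like than in adult cells. Eci1 was not called in 5 of the alternatives, with differences of 0.89 to 0.98.

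The peroxisomal enzymes held the largest differences among the oxidation enzymes proper. Of the 10 genes in this role 9 rose in adult hepatocytes over embryonic stem cells, with a median of 2.96. In hepatocyte-like cells 9 were called lower than in adult cells, with a median of -3.24. The shares over all genes were 11.0% higher and 9.12% lower in these comparisons. Acox2, the oxidase for branched chains and bile acid precursors, read 10.19, 10.10 and 10.11 in adult hepatocytes, 5.04, 5.64 and 4.52 in hepatocyte-like cells, and 4.54, 4.07, 4.46 and 4.20 in embryonic stem cells. Both lower groups were dim on average, and adult hepatocytes exceeded them by 5.81 ± 0.23 (adjusted p = 4e-10) and 5.06. Acox3, a relative for branched chains, read 7.52, 7.90 and 7.54, then 7.21, 7.96 and 7.34, then 7.10, 8.14, 7.54 and 7.94, so that the groups overlapped. The interval of its difference between adult hepatocytes and embryonic stem cells ran from -0.58 to 0.53, and that between hepatocyte-like cells and adult hepatocytes from -0.74 to 0.44.

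Ehhadh, the bifunctional enzyme of the straight-chain cycle, read 10.60, 10.60 and 10.46 in adult hepatocytes, 4.89, 5.05 and 5.01 in hepatocyte-like cells, and 6.65, 6.75, 6.92 and 6.51 in embryonic stem cells. The groups were wide apart, with a rise of 3.85 ± 0.15 in adult hepatocytes (14.4-fold, adjusted p = 2.96e-10) and a fall of 1.72 ± 0.15 into the dim range in hepatocyte-like cells (adjusted p = 2.7e-06). Hsd17b4, the other bifunctional enzyme, which also serves branched chains, read 10.91 to 11.15, 8.75 to 9.34 and 8.55 to 8.67. Unlike Ehhadh it was not called between hepatocyte-like and embryonic stem cells, at 0.40. Amacr, the racemase that readies branched chains for oxidation, read 10.19, 10.13 and 10.22, then 6.65, 6.34 and 6.72, then 7.52, 7.83, 7.86 and 7.90, and fell by 1.21 ± 0.16 in hepatocyte-like cells (adjusted p = 8.62e-05).

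Scp2, a thiolase and sterol carrier, read 10.80 to 11.18 in adult hepatocytes, 7.71 to 8.09 in hepatocyte-like cells and 8.03 to 8.29 in embryonic stem cells. Acad11, a dehydrogenase for long chains, read 10.65 to 10.72, 6.92 to 7.98 and 6.87 to 7.51. Pex11a, a membrane protein of peroxisome division, read 8.0, 8.54 and 8.67 in adult hepatocytes and was dim in all other arrays, at 5.0 to 5.43. These 3 rose in adult hepatocytes by 2.81, 3.52 and 3.11 and were not called between the other groups.

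Acaa1a and Acaa1b are near-identical copies of the peroxisomal thiolase, and their probes may read both. Acaa1b read 10.19, 10.89 and 10.61 in adult hepatocytes, 5.96, 6.05 and 6.39 in hepatocyte-like cells, and 5.92, 6.71, 6.20 and 5.88 in embryonic stem cells, a rise of 4.38 ± 0.23 (20.9-fold, adjusted p = 6.64e-09). The Acaa1a cluster rose by 1.29 ± 0.20 (2.45-fold, adjusted p = 1.46e-04), from 5.39 to 5.93 in embryonic stem cells to 6.75 to 7.17 in adult hepatocytes. The promoters of the copies are shown because they differ in CG content, as the capitals mark, with 2 CG pairs before the Acaa1b start (chr9:119157094-119157343, minus strand) and 10 before that of Acaa1a (chr9:119341044-119341293, plus strand), sequences from RefSeq on GRCm38.p6.
Acaa1b: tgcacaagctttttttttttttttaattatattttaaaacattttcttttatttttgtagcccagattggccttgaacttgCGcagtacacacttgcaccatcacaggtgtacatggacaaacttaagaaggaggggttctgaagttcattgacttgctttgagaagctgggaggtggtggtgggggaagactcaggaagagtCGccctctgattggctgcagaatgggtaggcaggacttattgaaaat
Acaa1a: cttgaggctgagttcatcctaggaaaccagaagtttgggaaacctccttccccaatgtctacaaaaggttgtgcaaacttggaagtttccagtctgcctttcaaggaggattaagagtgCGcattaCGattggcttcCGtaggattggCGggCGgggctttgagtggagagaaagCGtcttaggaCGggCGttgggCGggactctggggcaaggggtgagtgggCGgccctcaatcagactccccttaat
Promoters with at most 4 CG pairs in the 300 bases were 4 of the 34, or 11.8%, against 38.0% of all promoters, and belonged to Acox2 (2 promoters), Fabp1 and Acaa1b. The CG count was looked at after the values were seen. Its Spearman correlation with the difference between adult hepatocytes and embryonic stem cells was -0.26 over 30 of these genes and -0.23 over 14336 genes, across genes that share the same arrays.

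The 2 measured ketone body genes moved in opposite directions. Bdh1, which makes beta-hydroxybutyrate from acetoacetate in liver mitochondria, read 9.07, 9.14 and 8.90 in adult hepatocytes, 5.49, 5.53 and 5.69 in hepatocyte-like cells, and 6.02, 6.37, 6.01 and 6.18 in embryonic stem cells. The groups did not overlap, and Bdh1 rose by 2.89 ± 0.15 in adult hepatocytes (7.41-fold, adjusted p = 5.78e-09), which were 11.0-fold above hepatocyte-like cells (adjusted p = 2.25e-09). Oxct1, the transferase that lets other tissues burn ketone bodies and that hepatocytes are known to lack, read 5.74, 5.60 and 5.57 in adult hepatocytes, 8.85, 7.54 and 7.45 in hepatocyte-like cells, and 8.34, 7.82, 8.11 and 7.69 in embryonic stem cells. Adult hepatocytes were below all other arrays, by 5.10-fold against embryonic stem cells (adjusted p = 2.34e-05) and 4.96-fold against hepatocyte-like cells (adjusted p = 7.05e-05). Between hepatocyte-like and embryonic stem cells Oxct1 differed by -0.04 ± 0.29, with an interval from -0.68 to 0.60, and hepatocyte-like replicate 1 was the highest of all arrays.

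**Figure D3:**
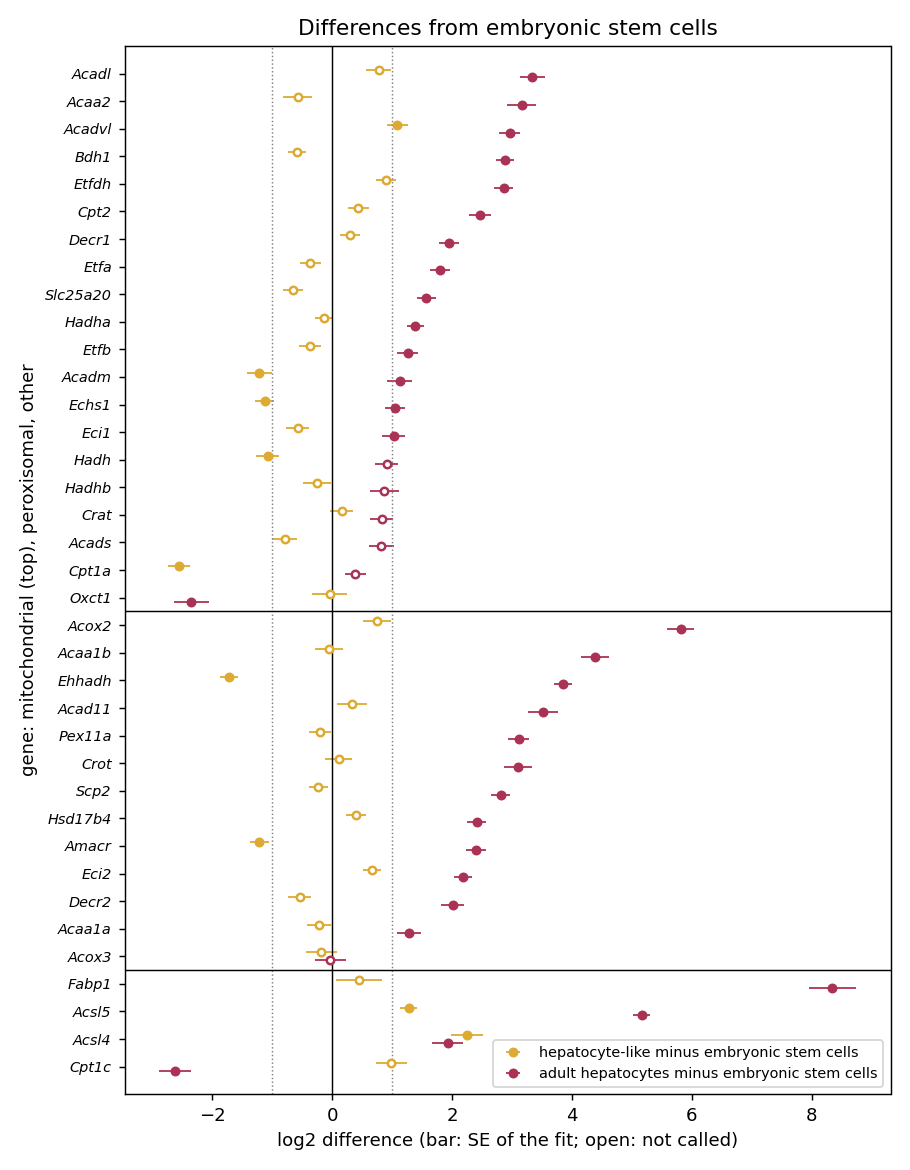
Log2 difference from embryonic stem cells, with its standard error, for each of the 37 genes in hepatocyte-like cells (yellow) and adult hepatocytes (red). Filled points were called and open points were not, and dotted lines mark differences of -1 and 1. Adult hepatocytes reach 8.34 for Fabp1, while hepatocyte-like cells range from -2.55 for Cpt1a to 2.25 for Acsl4.

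Set side by side, the peroxisomal genes differed more than the mitochondrial genes between adult hepatocytes and the other groups. The 13 peroxisomal genes had a median difference between adult hepatocytes and embryonic stem cells of 2.81 (quartiles 2.19 and 3.52), with 12 risen, and the 20 mitochondrial genes one of 1.33 (quartiles 0.90 and 2.57), with 14 risen and 1 fallen. Between hepatocyte-like cells and adult hepatocytes the medians were -3.04 and -1.97. Between hepatocyte-like and embryonic stem cells they were -0.18 and -0.36, with 2 peroxisomal genes fallen, and 4 mitochondrial genes fallen and 1 risen. Of all genes 8.61% were called higher and 7.35% lower in this comparison. In adult hepatocytes over embryonic stem cells the shares were 11.0% and 15.6%. In single arrays the median of the peroxisomal genes over the embryonic stem cell mean was 2.71, 2.62 and 2.81 in adult hepatocytes, and that of the mitochondrial genes 1.41, 1.43 and 1.21. These array medians did not overlap, while the genes of the lists did. In hepatocyte-like cells both were just below 0, at -0.25, -0.12 and -0.09 and at -0.28, -0.54 and -0.38. Leaving out Crat, Eci2, Amacr and Acad11, whose proteins occur in both organelles, gave medians of 2.95 and 1.39 for adult hepatocytes over embryonic stem cells. These are descriptions of chosen lists, with no test. In adult hepatocytes over embryonic stem cells, Acadl (3.34), Acaa2 (3.16), Acadvl (2.96), Bdh1 (2.89) and Etfdh (2.86) of the mitochondrial genes exceeded the peroxisomal median of 2.81.

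**Figure D4:**
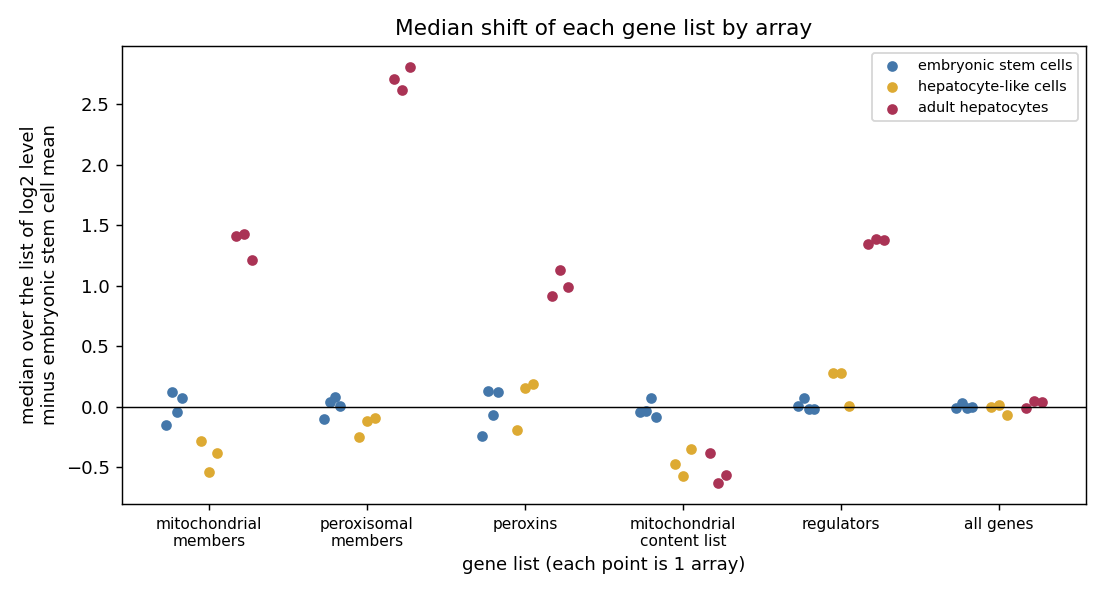
Median over each gene list of the log2 level minus the embryonic stem cell mean, per array, for the mitochondrial and peroxisomal genes, peroxins, mitochondrial content genes, regulators and all genes. In adult hepatocytes the peroxisomal genes lie at 2.62 to 2.81, above the mitochondrial genes at 1.21 to 1.43. Mitochondrial content genes lie below 0 in hepatocyte-like cells and in adult hepatocytes.

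Genes of the same pathways outside the list were read from separate lists, and their counts stand beside the shares of all genes called, which were 11.0% higher and 15.6% lower in adult hepatocytes over embryonic stem cells, and 8.61% higher and 7.35% lower in hepatocyte-like over embryonic stem cells. Of 26 other peroxisomal genes 16 rose and 2 fell in adult hepatocytes over embryonic stem cells, with a median of 1.73. In hepatocyte-like cells 18 were called lower than in adult cells, where 9.12% of all genes were. Between hepatocyte-like and embryonic stem cells 4 fell and 1 rose. The 4 that fell were Ephx2, an epoxide hydrolase (-4.46 ± 0.25), Pipox, which oxidises pipecolic acid (-4.04 ± 0.23), Phyh, which starts the breakdown of phytanic acid (-1.71 ± 0.14), and Pecr, a reductase (-1.43 ± 0.15). Ephx2, Pipox and Pecr averaged 5.43, 5.25 and 5.27 in hepatocyte-like cells, in the dim range, so these sizes are uncertain. Of 13 peroxins, which build the organelle, 6 rose in adult hepatocytes, with a median of 0.96, among them Pex11g (2.84) and Pex2 (2.43). Of 18 other mitochondrial fatty acid genes 10 rose and 1 fell, with a median of 1.10. Of 19 genes listed for mitochondrial content, such as import receptors and outer membrane channels, 1 rose and 5 fell in adult hepatocytes, with a median of -0.59. The 1 that rose, Mfn2, showed the largest difference of the list in this comparison (3.99-fold, adjusted p = 1.06e-06). Tomm20 (-1.79), Tomm40 (-1.87) and Vdac1 (-1.24) were among the 5 that fell. These are transcript levels, and the amount of mitochondria was not measured. After cyclic loess Vdac1 differed by -0.62 and was not called.

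Uptake and activation genes outside the list numbered 21, of which 9 rose and 1 fell in adult hepatocytes over embryonic stem cells. Slc27a2, a fatty acid transporter with synthetase activity on very long chains, read 11.89, 12.03 and 11.93 in adult hepatocytes, 4.53, 4.74 and 4.93 in hepatocyte-like cells, and 6.83, 7.12, 6.46 and 6.87 in embryonic stem cells. As with Ehhadh, the hepatocyte-like arrays were the lowest, a fall of 2.09 ± 0.18 (adjusted p = 2.43e-06). Over the mean of the clusters of Slc27a2 that difference was -1.02, and the one between adult hepatocytes and embryonic stem cells was 2.92 in place of 5.13. Slc27a5, which activates bile acids, rose by 6.56 in adult hepatocytes, and Acsm1 and Acsm5, synthetases for medium chains, by 5.80 and 5.83. In embryonic stem cells these genes averaged 4.43, 4.07 and 3.72, in the dim range. Fabp5, the epidermal binding protein, rose by 3.74 ± 0.42 in hepatocyte-like cells (adjusted p = 2.39e-05), and by 2.34 over the mean of its clusters. Of 9 other ketone body genes 4 rose and 1 fell in adult hepatocytes over embryonic stem cells, and 1 rose and 1 fell in hepatocyte-like cells, a share of each near that of all genes (8.61% and 7.35%). Acat1, the thiolase that condenses acetyl-CoA, rose by 3.32 ± 0.23 in adult hepatocytes and by 1.11 ± 0.23 in hepatocyte-like cells, the latter 0.85 and not called without hepatocyte-like replicate 1. The monocarboxylate transporter Slc16a7 rose by 6.45 in adult hepatocytes, and Slc16a6, which exports ketone bodies from liver, fell by 1.28.

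Among 19 regulators 12 rose and 2 fell in adult hepatocytes over embryonic stem cells, with a median of 1.41. Ppara, which encodes PPAR alpha, read 9.37 in adult replicate 1, higher still in replicates 2 and 3 of adult hepatocytes, 5.27, 4.66 and 5.03 in hepatocyte-like cells, and 4.76, 5.24, 4.81 and 4.91 in embryonic stem cells. Only the adult arrays were above the dim range, by 4.84 ± 0.21 over embryonic stem cells (adjusted p = 9.03e-10). Ppargc1a, a coactivator of oxidation genes, rose by 4.18 ± 0.19 and Hnf4a, a hepatocyte transcription factor, by 4.44 ± 0.22. Hepatocyte-like cells had 2 regulators risen, Pparg (2.11 ± 0.24) and the corepressor Nrip1 (2.14 ± 0.26), and 2 fallen, Klf15 (-1.63 ± 0.25) and the deacetylase Sirt1 (-1.70 ± 0.34). These are shares near those of all genes, 8.61% higher and 7.35% lower. Pparg was dim in embryonic stem cells (mean 4.55) and Klf15 in hepatocyte-like cells (mean 4.97), so their sizes are uncertain. Sirt1 read 9.83, 8.41, 9.85 and 8.5 in embryonic stem cell replicates 1 to 4, and 7.17, 7.48 and 7.67 in hepatocyte-like cells. The size of its fall depends on this spread, and was -1.95 to -1.47 without single arrays. Of 19 PPAR alpha targets outside the list 10 rose and 1 fell in adult hepatocytes, with Cyp4a14 (5.35) and Creb3l3 (4.03) the largest. In hepatocyte-like cells 2 fell, Angptl4 (-1.60) and Cidea (-1.69), or 10.5%, where 7.35% of all genes fell. They averaged 5.47 and 4.34 there, below 5.5, so the sizes are uncertain. Cidea, also the 1 that fell in adult hepatocytes, read 5.22, 7.27, 4.85 and 6.78 in embryonic stem cell replicates 1 to 4.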

How the data were processed

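Total RNA of the 10 samples was hybridised to Affymetrix arrays, and the deposited values are log2 intensities of probe clusters that the authors had already normalized. RMA, the oligo package 1.38.0 with R 3.3.1, and Transcriptome Analysis Console are named in the submitters' processing notes, without their roles. How the probes were summarised, and on which genome build, is not given in the sources used here. The values were used as deposited and not normalized again. Of 41345 clusters, 23521 carry 1 gene symbol, 1814 several and 16010 none, and the first kind gave 22180 genes. Groups and replicate numbers come from the sample titles.

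One linear model over all 3 groups was fitted to all genes by lmFit and eBayes of limma 3.58.1, under R 4.3.3 and with 7 residual degrees of freedom, with p-values adjusted by Benjamini-Hochberg over all 22180 genes in each of 3 comparisons. The procedure was tested on simulated data. The number of arrays limits the precision. Named are all 37 measured genes, and from each pathway list up to 4 called genes with the largest differences in a comparison. The genes, lists and motif were chosen with earlier results of these data known. Alternatives were another normalization (quantile, median centring, cyclic loess), another minimum difference, a filter on dim genes, a replicate block and leaving out each array.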

Additional observations from a re-analysis of the deposited data

Results flagged for a closer look

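Of the 37 genes tested for a single array that stands apart among the 4 of embryonic stem cells, 1 was picked out, Etfdh. It read 8.49 in replicate 1 and 8.42 to 8.43 in the other 3. Chance alone picks about 1 in 20 such groups, and the gap is small beside the rise of Etfdh by 2.86 in adult hepatocytes.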

How the results depend on the processing

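No called difference reversed under any alternative that was run. Between hepatocyte-like and embryonic stem cells the 9 called genes (3 higher, 6 lower) became 19 with no minimum difference (8 higher, 11 lower) and 2 with a minimum of 2 (1 higher, 1 lower). With that minimum of 2, 19 genes rose in adult hepatocytes over embryonic stem cells and 21 were lower in hepatocyte-like cells than in adults. Over all genes the counts of 3540, 5893 and 5106 became 6390, 9205 and 8003 with no minimum and 1030, 2501 and 2107 with a minimum of 2, in the order hepatocyte-like minus embryonic stem cells, adult minus embryonic stem cells, hepatocyte-like minus adult. Leaving out each array in turn gave 8 to 11 called genes (3 to 5 higher, 5 to 6 lower) in the first comparison, 29 to 31 in the second and 33 to 34 in the third. Under cyclic loess the mitochondrial medians were 1.86 (adult minus embryonic stem cells) and -2.42 (hepatocyte-like minus adult), and the peroxisomal medians 3.22 and -3.42. The peroxisomal median of adult minus embryonic stem cells was 2.90 after another quantile normalization, 2.71 with arrays centred on their median, 2.95 without the genes placed in both organelles, and 2.72 to 2.91 without single arrays. The cause of these changes was not tested.

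With the replicate number as a block the calls were 9, 31 and 34, the same counts as without it, but between hepatocyte-like and embryonic stem cells the block took Acadvl just below a difference of 1 and Cpt1c above it, at 1.09. The replicate numbers gave no sign of pairing between the groups. Deviations of samples with the same number correlated at -0.185 to 0.137 over 9 pairs, and those of other pairs at -0.246 to 0.228 over 24. With 3 or 4 arrays in a group this cannot show that the samples were unpaired, and the labels do not say. Of the tests on single members, 2175 stayed on their side of the threshold, 13 lost a call, 11 gained one, and 21 differences with no call changed sign. The arrays give no measure of signal over background here. Among the 37 genes, values below 5.5 therefore bound the precision of Fabp1, Acox2, Ehhadh, Pex11a, Hadhb and Acaa1a. The same holds for genes outside the list with a dim group, among them Ppara, Ppargc1a, Slc27a2, Slc16a7, Fabp5 and Cyp4a14.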

Other observations

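Among the other peroxisomal genes, 2 fell in adult hepatocytes relative to embryonic stem cells, and both belong to ether lipid synthesis, as was seen only after the values. Far1, which makes the fatty alcohol, was lower by a log2 difference of -3.00 ± 0.25 (limma, adjusted p = 5.35e-07), with an adult mean of 5.38 in the dim range, so the size is uncertain. Agps, which joins the alcohol to the backbone, fell by 1.54 ± 0.28 (adjusted p = 5.55e-04). Gnpat, which takes the first step of the same pathway, differed by -0.24 and was called in no comparison. Neither Far1 nor Agps was called between hepatocyte-like and embryonic stem cells.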
